A study of Mus musculus with 50 samples.

Results

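In liver sections from control and HIRA KO mice, 50 of 49917 imaged cells were rich in haemoglobin transcripts, and these 50 haemoglobin-rich cells are described here. A cell was taken as haemoglobin-rich when at least 8 of its decoded transcripts, and at least 8% of all its gene counts, came from targets whose names start with Hba or Hbb, and only segmented cells with at least 20 gene counts entered the choice. The panel held 1000 gene targets and 10 negative probes, which match no transcript, and 2 of the targets met that name rule, Hba-a1/2 and Hbb. The cells were thus chosen by the number and the share of their haemoglobin counts, and both are given as a description, without a test.

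The sections came from C57BL/6 mice. Controls were wild-type animals, and HIRA KO animals carried HIRA fl/fl alleles. Both groups had received AAV8-TBG-Cre, a virus in which the TBG promoter drives Cre in hepatocytes, at 6 months of age, and livers were taken 12 months later, at 18 months. The 5 µm sections lay on 1 slide and were imaged by CosMx, which decodes single fluorescent spots as transcripts and assigns them to segmented cells, in 50 fields of view, 25 per group. Fields of view formed 6 tissue areas, 3 per group (control 1 to 3, HIRA KO 1 to 3), and the labels name no mouse, so tissue areas served as replicates and p-values measure the spread between areas. The areas formed 3 rows of 1 control and 1 HIRA KO area, with the control areas all on 1 side, so that genotype cannot be told apart from the side of the slide. Areas held 6829 to 10180 cells and 741485 to 1569254 gene counts. Hira was not on the panel, so the deletion could not be checked in these counts. In the cells that were not haemoglobin-rich, 11 hepatocyte genes made up 8.43% of gene counts.

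Haemoglobin carries oxygen in red blood cells and is built from alpha and beta chains. Mammalian red cells shed their nucleus while they mature in the bone marrow and keep a remnant of haemoglobin messenger RNA for a short time after they enter the blood. In the liver they pass through the sinusoids, the capillaries between the plates of hepatocytes, where the resident macrophages, the Kupffer cells, take up aged red cells and recover their iron. Maturing erythroid cells that still have a nucleus carry many other transcripts besides globin, such as those for the erythropoietin receptor, the transferrin receptor and the enzymes of haem synthesis.

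Hba-a1/2 is 1 target for both adult alpha-globin genes, which are near-identical, so the 2 genes cannot be told apart. In RefSeq on GRCm38.p6 they lie at chr11:32283672-32284486 (Hba-a1) and chr11:32296492-32297310 (Hba-a2). The Hbb target does not say which adult beta-globin gene it reads, Hbb-bs at chr7:103826523-103827928 or Hbb-bt at chr7:103812524-103813923. The panel carried 7 of 36 genes on a list of erythroid genes (Epor, Kit, Bcl2l1, Cd36, Cd44, Mif and Gpx1), but only Epor and Kit of the 12 genes of its core, and 3 of 14 platelet and megakaryocyte genes.

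Against their label as erythroid cells, the haemoglobin-rich cells looked in most measures like the liver cells around them. All 50 had a segmented nucleus, as did all but 177 of the other cells (0.355%). A nucleus was thus the rule for a segmented cell and does not set these cells apart. Apart from haemoglobin they held 8003 gene counts, of which 9.30% came from the hepatocyte genes, against 11.1% in the 942 cells that were among the 20 nearest to a haemoglobin-rich cell. Epor, the erythropoietin receptor, and Kit, a receptor of early progenitors, had 3 counts each, against a mean of 4 and a highest value of 9 over the negative probes in the same cells. These 2 genes thus stood at the level of the negative probes, and the cells are called haemoglobin-rich throughout.

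Haemoglobin-rich cells were few and lay mostly in 2 areas. Control 1, control 2 and control 3 held 1, 1 and 11 of them, and HIRA KO 1, HIRA KO 2 and HIRA KO 3 held 0, 4 and 33. In percent of the cells of an area this came to 0.0122, 0.0146 and 0.156 in control and to 0, 0.0394 and 0.439 in HIRA KO. The 0 of 10180 cells in HIRA KO 1 allows a share of up to 0.0295%, counting error only. Control 3 and HIRA KO 3, both in the third slide row, were the highest of their group, and the groups overlapped.

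Control areas had a mean share of 0.0609% ± 0.0822 and HIRA KO areas of 0.159% ± 0.243 (SD, n = 3), a difference of 0.0985 percentage points that was smaller than the spread between areas (exact permutation test, two-sided, p = 0.7, where 0.1 is the smallest possible). Within slide rows HIRA KO minus control was -0.0122, 0.0248 and 0.283 percentage points. The direction rested on HIRA KO 3, and without that area the difference was -0.0412. With 3 areas against 3 this test cannot reach 0.05.

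Within areas the cells occurred in 19 of 50 fields of view, with at most 6 in any of them. HIRA KO 3 had them in all 8 of its fields of view and control 3 in 6 of 8. Only 1 haemoglobin-rich cell had another as its nearest cell, and 6 had another among their 20 nearest.

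**Figure D1:**
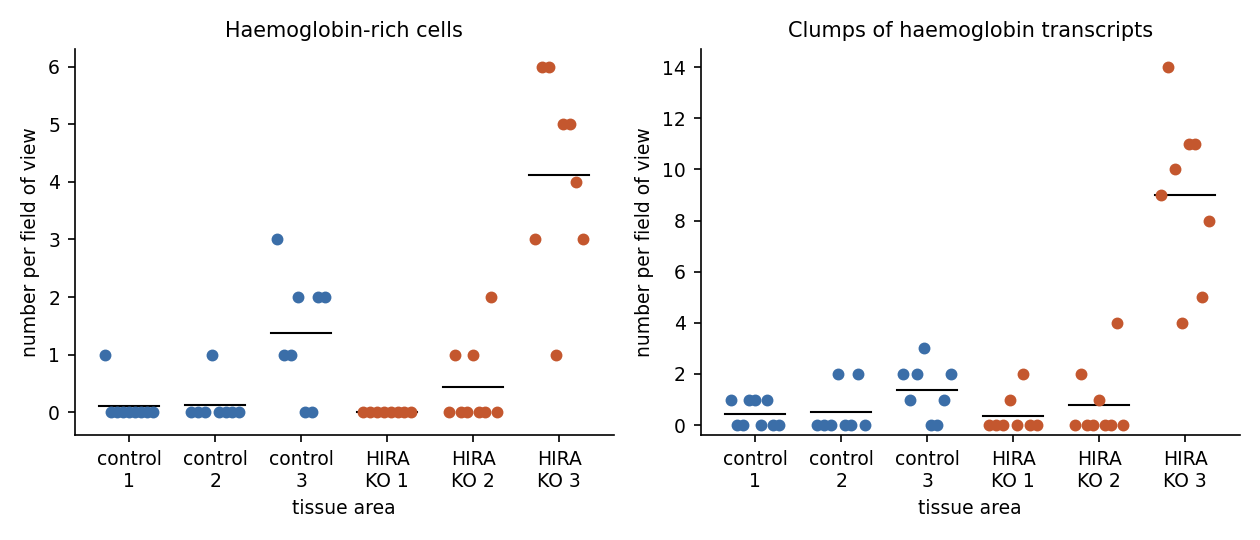
Haemoglobin-rich cells (left) and clumps of haemoglobin transcripts (right, at least 8 transcripts linked within 20 pixels) per field of view, for the 6 tissue areas. Each point is 1 field of view and the line is the mean of the area. HIRA KO 3 stands above the others in both panels, with 4 to 14 clumps per field of view.

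In each cell the rule took the 2 targets as a sum. Haemoglobin counts ranged from 8 to 70 with a median of 21, on a total of 53 to 489 gene counts per cell, so that haemoglobin took 8.26% to 44.4% of a cell's counts (median 13.1%). Both targets were present in all 50 cells, which a minimum of 8 on their sum makes likely in advance. Hba-a1/2 exceeded Hbb in 38 cells and Hbb exceeded Hba-a1/2 in 12, and the alpha target made up 36.4% to 81.0% of haemoglobin counts (median 57.1%). The 1 cell of control 1 held 19 haemoglobin counts and the 1 cell of control 2 held 9. The 11 cells of control 3 ran from 8 over a median of 20 to 35, the 4 cells of HIRA KO 2 from 11 over 18.5 to 44, and the 33 cells of HIRA KO 3 from 11 over 23 to 70.

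At the edge of the rule the values ran on without a gap. Just inside lay cells with 18 of 218, 27 of 326 and 11 of 132 counts (8.26%, 8.28% and 8.33%), and just outside cells with 23 of 302, 21 of 276 and 12 of 162 (7.62%, 7.61% and 7.41%). A further 54 cells had at least 8 haemoglobin counts but fell short of 8%, of which 40 lay in HIRA KO 3. These were large cells, with a median area of 32512 square pixels and a median of 297 gene counts. At least 8 haemoglobin counts at under 8% requires many gene counts, and the lowest had 131, so that their depth follows from the choice.

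The 50 cells held 1239 of the 14955 haemoglobin counts of all cells, or 8.28%. Of the other cells, 80.0% had no haemoglobin count, 19.6% had 1 to 3, and 129 cells had 4 to 7. Haemoglobin made up 16.9 to 22.96 of every 10000 gene counts in the other cells of an area, and 19.3 of every 10000 outside cells. A negative probe took 3.65 to 4.56 of every 10000 gene counts. Across the 5 largest marker-defined classes the level ranged from 14.2 per 10000 in B and plasma cells to 19.4 in MHC class II myeloid cells, with 19.2 in hepatocytes. This low level was thus spread over all common classes and over the space between cells, and a single haemoglobin count does not mark a cell.

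**Figure D2:**
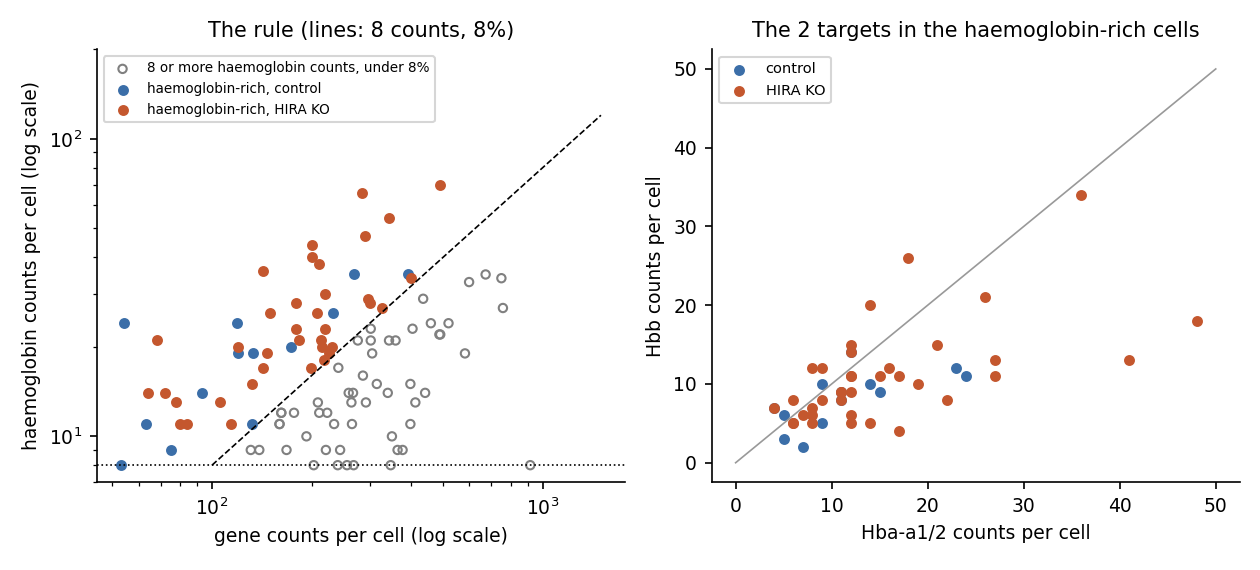
Left, haemoglobin counts against all gene counts per cell on log axes for the 104 cells with at least 8 haemoglobin counts, where the dotted line is 8 counts and the dashed line 8% of gene counts. Right, Hba-a1/2 against Hbb counts in the 50 haemoglobin-rich cells with the line of equality, below which 38 cells lie.

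Over all cells of an area, haemoglobin did not separate the genotypes. Hba-a1/2, the alpha chains, took 12.5, 12.2 and 11.3 of every 10000 counts in the control areas and 7.99, 9.51 and 16.3 in the HIRA KO areas. Hbb, the beta chain, took 9.68, 8.52 and 9.56 in control and 8.88, 9.05 and 13.02 in HIRA KO. HIRA KO 3 was the highest area for both targets, and the groups overlapped. With edgeR (quasi-likelihood, Benjamini-Hochberg adjustment over 998 targets), the log2 fold change of Hba-a1/2 was 0.05 (SE 0.23, adjusted p = 0.959) and that of Hbb 0.29 (SE 0.17, adjusted p = 0.722), while 2 of the 998 targets (0.2%) passed. For Hba-a1/2 the sign turned with library size scaling (-0.09), with the slide row as a block (-0.04) and without HIRA KO 3 (-0.38). In such sums, fewer haemoglobin-bearing cells and less RNA per cell cannot be told apart.

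Haemoglobin transcripts were packed into a small part of the cells that held them. In each cell the median distance between any pair of haemoglobin transcripts was set against that between any pair of other transcripts. This measure was chosen after the data had been examined. The rule did not use the positions. The distance was 14.3 pixels for haemoglobin (median over the 50 cells, range 8.14 to 34.2) and 62.4 pixels for the other transcripts (22.3 to 101). It was shorter for haemoglobin in 50 of 50 cells.

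By area, the median haemoglobin distances were 13.6, 11.8 and 13.7 pixels in control 1, 2 and 3 and 14.9 and 14.3 in HIRA KO 2 and 3, against 65.9, 36.4, 42.3, 63.99 and 62.7 for other transcripts. All 5 areas with such cells went the same way and their values did not overlap. The mean difference over areas was -43.2 pixels (exact sign-flip permutation test over 5 areas, two-sided, p = 0.0625, the smallest possible, and 0.1 after Benjamini-Hochberg adjustment over the 8 position measures). The ratio of the 2 distances was under 0.5 in 48 cells, and in the most even cell, in control 3, it reached 0.994.

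Alpha and beta transcripts lay in the same place. The distance from an Hba-a1/2 to an Hbb transcript was 14.1 pixels (median over cells), and that from a haemoglobin to any other transcript 80.4 pixels. A median of 95.8% of a cell's haemoglobin transcripts fell within 20 pixels of their centre, in cells whose median area corresponds to a circle 151 pixels wide.

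No other abundant target was packed in this way. In the 50 cells, 40 combinations of target and cell had at least 8 counts, from 16 targets in 22 cells. Ttr, the carrier of thyroid hormone and retinol-binding protein made by hepatocytes, gave 17 of them. Their median distances ran from 38.5 to 161 pixels, with a median of 75.6, and in none was the distance below that of haemoglobin in the same cell.

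The packed transcripts lay outside the nucleus. Of the haemoglobin transcripts of a cell, a median of 0% lay in the nucleus and 86.2% in the cytoplasm, against 43.2% and 39.8% of the other transcripts. No haemoglobin transcript was nuclear in 36 of the 50 cells, and in 1 cell more than 50% were. The nuclear share was lower for haemoglobin in 49 of 50 cells and in 5 of 5 areas, by a mean of 40.7 percentage points (exact sign-flip permutation test over 5 areas, p = 0.0625, the smallest possible). The share at the membrane had no common direction (lower in 21 cells, higher in 23).

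Haemoglobin transcripts were also close together in depth. The SD of the imaging plane was 1.14 for haemoglobin and 1.89 for the other transcripts, and it was smaller in 49 of 50 cells and 5 of 5 areas (exact sign-flip permutation test over 5 areas, p = 0.0625).

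The low haemoglobin signal of other cells had another position. In cells with fewer than 4 haemoglobin counts, 50.04% to 62.1% of haemoglobin transcripts per area were nuclear, against 42.6% to 52.8% of other transcripts, with haemoglobin above the others in all 6 areas. The packed haemoglobin and the scattered counts thus lay on opposite sides of the other transcripts.

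The 54 cells that failed only the 8% showed the same pattern in cells that the rule left out. Their haemoglobin distance was 13.7 pixels against 82.1 for the other transcripts and it was shorter in 54 of 54 cells. In all 6 areas the difference had this sign, with a mean of -55.3 pixels (exact sign-flip permutation test over 6 areas, two-sided, p = 0.03125, the smallest possible, 0.05 after Benjamini-Hochberg adjustment). The median nuclear share was 0% against 38.3%.

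**Figure D3:**
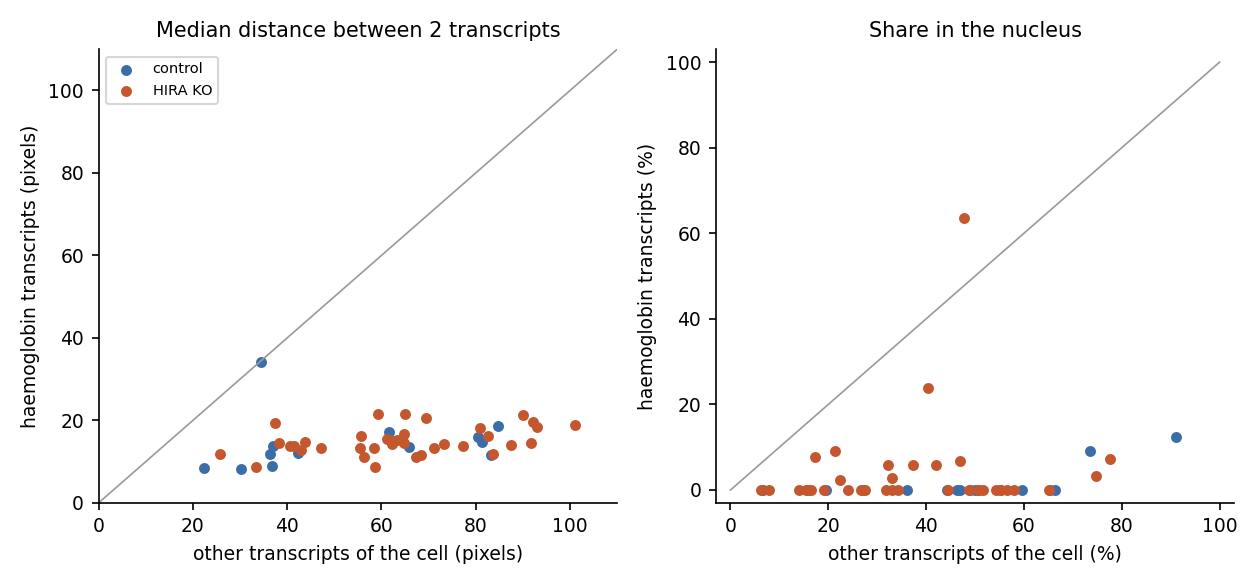
Each point is 1 haemoglobin-rich cell. Left, the median distance between any pair of haemoglobin transcripts against that between any pair of other transcripts, in pixels. Right, the share of haemoglobin and of other transcripts in the nucleus, in percent. Lines mark equality. All 50 cells lie below the line on the left and 49 on the right.

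To read the packing without cell outlines, clumps were sought among all haemoglobin transcripts, inside and outside cells, as groups of at least 8 linked by steps of up to 20 pixels. There were 101 clumps with 8 to 76 transcripts (median 20), and all 101 held both targets, with more Hba-a1/2 in 70 and more Hbb in 21. A clump measured 34.8 pixels between its farthest transcripts (median, range 12.5 to 78.3). The nucleus of the median other cell corresponds to a circle 60.7 pixels wide.

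Cell outlines cut through many clumps. Of the 101 clumps, 57 lay within 1 cell, 35 touched 2 or 3 cells, 5 lay in 1 cell and outside cells, and 4 lay wholly outside cells. A haemoglobin-rich cell was touched by 48 clumps and none by 53.

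Control 1, 2 and 3 had 4, 4 and 11 clumps and HIRA KO 1, 2 and 3 had 3, 7 and 72. Clumps held 2.74%, 1.71% and 16.5% of all haemoglobin transcripts in the control areas and 2.80%, 4.79% and 38.8% in the HIRA KO areas. HIRA KO 3 stood far above the other 5 areas, which overlapped. Control areas averaged 6.33 ± 4.04 clumps and HIRA KO areas 27.3 ± 38.7 (SD, n = 3; exact permutation test, two-sided, p = 0.7). Within slide rows HIRA KO minus control was -1, 3 and 61 clumps, and without HIRA KO 3 the difference of the means was -1.33.

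In HIRA KO 3 clumps were present in all 8 fields of view, 4 to 14 in each (median 9.5), so that its number did not come from 1 field of view. Control 3 had at most 3 in a field of view. With links of 10 or 40 pixels there were 75 or 107 clumps, 56 or 74 of them in HIRA KO 3.

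The transcripts that shared the spot with haemoglobin differed from those farther out. Within 20 pixels of the haemoglobin centres of the 50 cells lay 482 transcripts of other targets, and 27518 lay in rings 40 to 150 pixels from the centres, whichever cell they belonged to. Of these transcripts, 18.0% were nuclear at the spots and 42.5% in the rings, so that the zones also differed in compartment. Its part in the shares was not tested. Each share below is of all non-haemoglobin transcripts in its zone, with an exact Clopper-Pearson 95% interval that covers counting error only. No test was made, because most areas gave too few transcripts, and the lists and zones were chosen after the data had been examined.

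Over all spots together hepatocyte genes were sparse. They made up 4.15% of transcripts there (20 counts, 2.55 to 6.34) and 11.01% in the rings. In HIRA KO 3 the values were 4.96% (2.91 to 7.82) and 12.1%, and in the other 4 areas together 2.16% (0.447 to 6.18) and 8.29%. By area the share was higher at the spot in 2 of 5, control 1 (12.5% against 6.75%) and control 2 (14.3% against 4.88%), each on 1 hepatocyte count of 8 or 7 transcripts, and the mean difference over areas was -1.90 percentage points. Ttr gave 5 transcripts at the spot, 1.04% against 5.38% in the rings. Gc, the vitamin D-binding protein secreted by hepatocytes, gave 0 of 482, for an upper bound of 0.762%, against 1.06%.

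The erythroid list went the other way, mainly through a single gene. It made up 4.98% of transcripts at the spot (24 counts, 3.22 to 7.32) and 1.93% in the rings, and was higher in 5 of 5 areas, on 1 or 2 counts in each area but HIRA KO 3. Of the 24 counts, 19 were Gpx1, an antioxidant enzyme that is abundant in red cells and is also made by hepatocytes and most other cells. Gpx1 took 3.94% (2.39 to 6.09) against 1.40%, in HIRA KO 3 4.66% (2.69 to 7.46) against 1.56%, and in the other 4 areas 2.16% (0.447 to 6.18) against 0.988%. Bcl2l1, which protects maturing erythroid cells from apoptosis and acts in many other cells, gave 4 counts, 0.830% (0.226 to 2.11) against 0.0981%. Epor and Kit gave no count.

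Other marker lists gave few counts at the spots. The stellate and fibroblast list (7 counts) was higher there in 0 of 5 areas. The same held for the vessel endothelial and smooth muscle lists (0 counts each) and the B and plasma and neutrophil lists (1 count each). With so few counts an area often gave 0, which cannot lie above its ring. The biliary list made up 2.07% (10 counts, 0.999 to 3.78) against 0.996% in the rings, with 2.04% against 0.988% in HIRA KO 3 and 2.16% against 1.01% in the other 4 areas, and was higher at the spot in 2 of 5. The Kupffer and the sinusoidal endothelial list were each higher in 1 of 5 areas. In HIRA KO 3 the Kupffer list made up 2.92% (10 counts, 1.41 to 5.30) against 1.22% in the rings, among them 5 counts of Cd5l, a scavenger protein of Kupffer cells, and 4 of C1qa, a complement component. In the other 4 areas the Kupffer list was at 0 of 139 counts, for an upper bound of 2.62%. Sinusoidal endothelial genes gave 5 counts, 1.04% (0.338 to 2.40) against 0.658%, of which 3 were Kdr, a VEGF receptor, and in HIRA KO 3 they were at 0.583% against 0.654%. Platelet and megakaryocyte genes gave 1 count. The iron and haem handling list, which shares Cd5l and Marco with the Kupffer list, made up 2.28% (11 counts, 1.14 to 4.05) against 1.17%. It was at 2.92% against 1.17% in HIRA KO 3 and at 0.719% against 1.18% in the other 4 areas. The MHC class II myeloid list made up 2.28% (11 counts, 1.14 to 4.05) against 1.94%. It was at 2.92% against 1.99% in HIRA KO 3 and at 0.719% against 1.82% in the other 4 areas.

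Around the centres of all 101 clumps, 1040 transcripts of other targets were found. Hepatocyte genes made up 4.13% of them (3.01 to 5.53) against 11.05% in the rings, erythroid genes 3.65% (2.60 to 4.98) against 1.999%, and Kupffer genes 3.17% (2.19 to 4.43) against 1.28%. Without HIRA KO 3 these were 4.20% against 8.61%, 2.29% against 1.55%, and 1.91% against 0.880%.

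**Figure D4:**
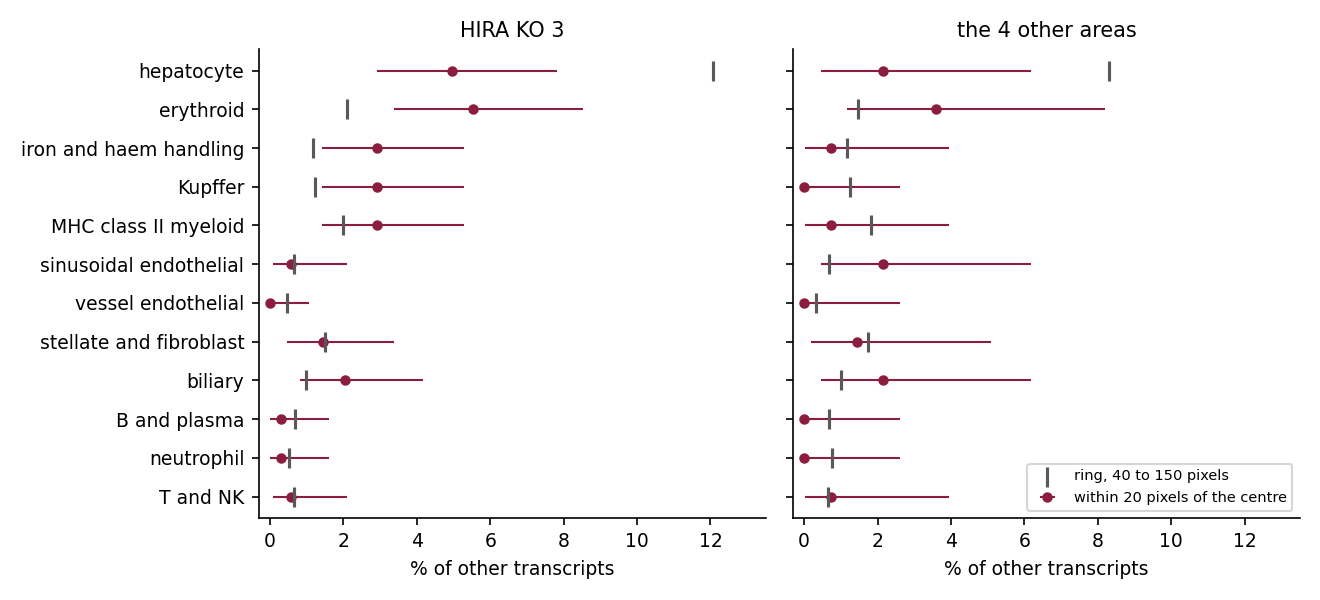
Share of other transcripts that belong to each gene list, in percent, within 20 pixels of the haemoglobin centres of the haemoglobin-rich cells (points, with exact 95% binomial intervals that cover counting error only) and in rings 40 to 150 pixels away (grey ticks). Left, HIRA KO 3 with 343 transcripts at the spot. Right, the other 4 areas with such cells, with 139. Hepatocyte genes lie below their ring value in both panels.

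Other transcripts of the cell numbered 5.57 per 1000 square pixels at the spot against 8.28 in the whole cell (medians, lower in 36 of 50 cells and 4 of 5 areas, exact sign-flip permutation test over 5 areas, p = 0.125). Counted whichever cell held them, they numbered 7.67 per 1000 square pixels at the spots and 8.38 in the rings, and in control 1 (6.37 against 3.61) and control 3 (7.23 against 6.11) the spot was the denser.

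In size and stains the haemoglobin-rich cells covered the range of the liver cells around them. Cell area ran from 2158 over a median of 17996 to 41292 square pixels, and 34 cells were larger and 16 smaller than the median other cell of their area. By area the medians were 26608, 9208 and 8676 in control 1, 2 and 3 and 17011 and 20831 in HIRA KO 2 and 3, against 14948, 16630, 12116, 10280 and 11660 for the other cells. The cells were larger in 3 of 5 areas and smaller in 2 (exact sign-flip permutation test over 5 areas, two-sided, p = 0.4375).

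Nucleus area ran from 496 to 9036 square pixels with a median of 3024. The area medians were 5132, 1940 and 2132 in control and 3202 and 3116 in HIRA KO, against 2980, 3080 and 2832 and 3008 and 2676 in the other cells (higher in 3 of 5, exact sign-flip permutation test, p = 0.8125). Mean DAPI, the DNA stain, ran from 1082 to 5348 with a median of 2237. Its area medians were 1955, 2506 and 3292 in control and 1482 and 2210 in HIRA KO, against 1883, 2059 and 3042 and 2766 and 2794 (higher in the 3 control areas and lower in the 2 HIRA KO areas, exact sign-flip permutation test over 5 areas, p = 0.625). Nuclei of the haemoglobin-rich cells thus lay on both sides of the other cells in size and DNA stain, and no difference was detectable over 5 areas.

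**Figure D5:**
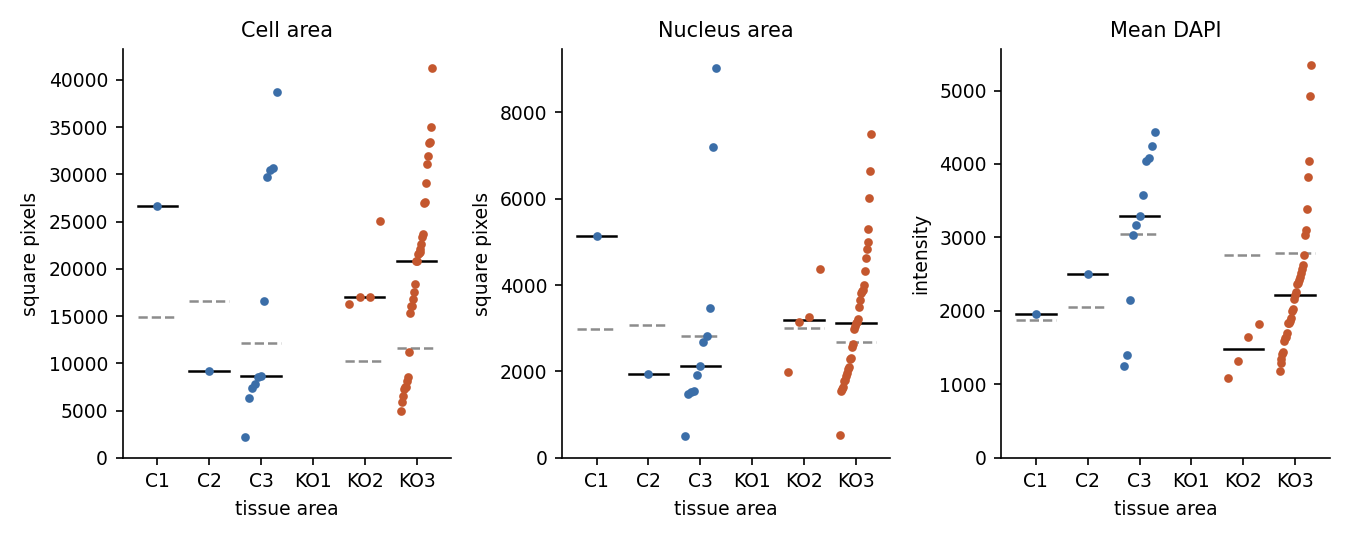
Cell area and nucleus area (square pixels) and mean DAPI intensity of the 50 haemoglobin-rich cells by tissue area (C, control; KO, HIRA KO). Each point is 1 cell, the black line is their median and the grey dashed line the median of all other cells of that area. KO1 had no such cell. Black lines lie on both sides of the grey lines in all 3 panels.

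None of 13 cell measures passed after Benjamini-Hochberg adjustment against all other cells or against the 20 nearest (exact sign-flip permutation tests over 5 areas, lowest adjusted p = 0.406). With 5 areas the unadjusted p could not fall below 0.0625, and it reached that value for CD3 stain against all other cells (higher in 5 of 5 areas, 719 against 657, mean of area medians) and for B2M and PanCK stain against the nearest cells (4175 against 3278 and 3135 against 2978, both higher in 5 of 5). The number of other gene counts is bounded by the rule, which favours cells with few of them. It ran from 30 to 419 per cell with a median of 154.5.

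Between genotypes the haemoglobin-rich cells could be compared over 3 control and 2 HIRA KO areas. Other gene counts per cell, which the rule bounds, averaged 93.7 in control and 148 in HIRA KO and are given as a description. The nuclear share of other transcripts averaged 48.7% in control and 30.3% in HIRA KO, and its areas did not overlap between the groups (two-sided exact permutation test, p = 0.1, which is the lowest it can give). Control 1 and control 2 entered this average with 1 cell each. In all other cells the median nuclear share was 53.1%, 53.3% and 48.5% in control 1, 2 and 3. There it was 49.4% and 44.3% in HIRA KO 2 and 3, so that the areas of the other cells overlapped. No measure passed after adjustment over the 13 (lowest adjusted p = 0.65). The means of nucleus area were 3068 and 3159 square pixels and those of mean DAPI 2584 and 1846 (exact permutation test, p = 1 and 0.4).

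Without haemoglobin, 23 of the 50 cells met a rule for hepatocytes (at least 8 counts and 8% of counts from the marker list), 1 met that for smooth muscle and 1 that for MHC class II myeloid cells, while 25 met none. Of the hepatocytes, 19 lay in HIRA KO 3, where 51.4% of other cells were in that class. None of the 11 cells of control 3 was, where 20.2% of other cells were. The share of hepatocytes was 46% among the 50 cells, 47.9% among their nearest cells and 29.7% among all other cells.

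Among the gene groups named for blood, the 7 erythroid genes made up 2.09% of the non-haemoglobin counts of the 50 cells, 1.91% of those of the nearest cells and 1.54% of those of all other cells. Gpx1 gave 125 of these 167 counts. By area the 7 genes made up 1.75%, 3.03% and 0.815% in control 1, 2 and 3 and 2.47% and 2.37% in HIRA KO 2 and 3. In the nearest cells they made up 1.19%, 1.08%, 1.36%, 2.11% and 2.03% in the same order, so that control 3 went the other way. Mif, a cytokine, had 14.99 per 10000 counts against 26.7 in the nearest cells, Cd36, a fatty acid receptor, 12.5 against 10.1, and Bcl2l1 17.5 against 9.15. Cd44 had no count in any cell of the series, so that the other 6 genes carried the list. Of the platelet genes, Thbs1, a matrix protein released by platelets and by other cells, had 12 counts (14.99 against 4.87 per 10000), Pf4, a platelet chemokine, had 4 and Vwf, the factor that binds platelets to vessel walls, had 1. The negative probes in these cells had a mean of 4 and a highest value of 9, so that Pf4 and Vwf did not rise above them. Mif with 12 counts and Cd36 with 10 lay close to the highest, as did Thbs1.

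The 10 measured genes for iron and haem handling took 1.25% of counts, against 1.29% in the nearest cells and 1.21% in all others. Slc40a1, the iron exporter ferroportin, had 17.5 per 10000 against 18.2 in the nearest cells, Cd163, the receptor for haemoglobin bound to haptoglobin, 5.00 against 4.35, and Cd47, which on red cells holds off phagocytosis, 19.99 against 18.9. Marco, a scavenger receptor, had 14.99 against 9.08 and Cd5l 26.2 against 28.3. Cd163 had 4 counts, the mean of the negative probes in these cells, and Marco had 12, close to the highest of 9.

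In the test of other genes against the nearest cells, 15 targets had enough counts, and 0 of them (0%) passed in edgeR after Benjamini-Hochberg adjustment, while 1 had an unadjusted p under 0.05. DESeq2 also called 0. Neat1, a nuclear long non-coding RNA, had the lowest p. It took 0, 0, 47.6, 0 and 44.3 of every 10000 counts in the cells of control 1, 2 and 3 and HIRA KO 2 and 3, against 31.2, 118, 89.3, 58.6 and 61.7 in the nearest cells. All 5 areas were lower, with a log2 fold change of -0.72 (SE 0.26, edgeR adjusted p = 0.118). Ttr was at -0.53 (SE 0.28, adjusted p = 0.331), Itm2b, a membrane protein, at 0.35 (SE 0.18, adjusted p = 0.331) and Gpx1 at 0.19 (SE 0.13, adjusted p = 0.411), where the median of the 15 was -0.03. Members of the blood gene groups other than Gpx1 had too few counts to be tested.

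Against all other cells, 0 of 996 targets (0%) passed the same edgeR test, 93 had an unadjusted p under 0.05 and DESeq2 called 0. The count of 0 carries little weight, because the libraries of control 1 and control 2 held 114 and 66 counts of 1 cell each, their TMM scaling factors came to 5.00 and 9.06, and with this scaling the fit did not recover changes put into simulated counts. The median target stood at a log2 fold change of -0.85 with TMM and of -0.04 with library size scaling. With library size scaling, 1 target passed, Ighm, the heavy chain of IgM, with 4 counts in the 50 cells or 5.00 per 10000 against 21.1 in the other cells (log2 fold change -2.43, SE 0.58, edgeR adjusted p = 0.0334). In simulated counts library size scaling also called targets that had not been changed. With 4 counts, Ighm stood at the mean of the negative probes in the 50 cells. The B and plasma list, which holds Ighm, took 0.537% of counts in these cells, 0.652% in the nearest cells and 1.19% in all others. No member of the erythroid, platelet or iron and haem lists passed with either scaling.

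The counts per 10000 that follow are pooled over areas. HIRA KO 3 gave 5865 of the 8003 counts of the haemoglobin-rich cells, so that these values also carry differences between areas. By area, Ttr was lower than in the nearest cells in control 2, control 3, HIRA KO 2 and HIRA KO 3, and higher in control 1. None of the genes with the lowest p in 6 further marker lists, named by rule, passed with TMM. In counts per 10000, haemoglobin-rich cells against others, these were Ttr (412 against 333) and Apoa1 (28.7 against 35.3) for hepatocytes, Spp1 (0 against 8.797) and Anxa4 (6.25 against 16.1) for bile ducts, and Dpt (2.50 against 10.1) and Gsn (6.25 against 16.3) for stellate cells and fibroblasts. For Kupffer cells they were C1qa (36.2 against 22.1) and Cd5l (26.2 against 17.4), for MHC class II myeloid cells H2-Aa (27.5 against 25.3) and Cd74 (71.2 against 57.7), and for sinusoidal endothelium Eng (13.7 against 13.1) and Bmp2 (19.99 against 14.5).

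Comparing the haemoglobin-rich cells of HIRA KO with those of control, only Ttr and Apoe had enough counts to enter the edgeR fit, Ttr through the HIRA KO areas alone. Ttr had 2 of 114, 0 of 66 and 10 of 1472 non-haemoglobin counts in control 1, 2 and 3, and 32 of 486 and 286 of 5865 in HIRA KO 2 and 3. Per 10000 this came to 175, 0 and 67.9 against 658 and 488, without overlap. The nearest cells, which are not haemoglobin-rich, had 98.7, 108 and 205 per 10000 in control and 789 and 581 in HIRA KO. The fit called Ttr, 1 of the 2 targets (50%), at a log2 fold change of 2.59 (SE 0.39, edgeR adjusted p = 0.0112), but since Ttr met the count minimum only in HIRA KO and the same fit did not recover changes put into simulated counts, the call carries no weight. It did not pass with haemoglobin-rich cells chosen at 5 counts and 5% or at 15 counts and 15%, where the log2 fold change was 0.64 and 0.52, or without control 2 (1.35). Nor did it pass without the filter on low counts (3.896) or with the slide row as a block (2.60). Ttr did pass with library size scaling, with DESeq2, at 50 gene counts per cell and with very large cells left out. The count minimum was the same in these settings. The simulation tested 5 targets, of which 3 were raised and 1 lowered, and library size scaling recovered these changes. Apoe, an apolipoprotein, had 1, 2, 17, 10 and 77 counts in the same order, and with only 2 targets the scaling fixed its fold change at 0.

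Among the 20 nearest cells of each haemoglobin-rich cell, pooled over the 50, 48.1% were hepatocytes, 42.9% met the rule for no class, 4.5% MHC class II myeloid cells, 1.6% stellate cells or fibroblasts, 1.1% biliary cells and 0.7% Kupffer cells. Hepatocytes made up 0%, 0% and 26.8% of the neighbours in control 1, 2 and 3 and 58.75% and 56.8% in HIRA KO 2 and 3, so that the pooled value rests on HIRA KO. As means over the 5 areas, cells of no class made up 65.2% of their neighbours, and hepatocytes made up 28.5% of their neighbours and 29.2% of the neighbours of other cells (exact sign-flip permutation test over 5 areas, p = 1). Biliary cells made up 0.455% against 1.31%, B and plasma cells 0.0303% against 1.05%, smooth muscle cells 0% against 0.142% and neutrophils 0.0303% against 0.0883%. These 4 classes were lower in all 5 areas (exact sign-flip permutation test, p = 0.0625, the smallest possible). All 4 were at 0% in control 1 and control 2, with 1 haemoglobin-rich cell each, and in HIRA KO 2, with 4. For rare classes so few cells often give 0, which cannot lie above the other cells, so that the common direction carries little weight. None of the 13 classes passed after Benjamini-Hochberg adjustment (lowest adjusted p = 0.203). Haemoglobin-rich cells had 0.303% haemoglobin-rich neighbours, against 0.128% for other cells (exact sign-flip permutation test, p = 0.5). With cells chosen at 5 counts and 5% this difference was 1.48 percentage points, over 6 areas (p = 0.25 by the same exact test).

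No cell reached 8 counts and 8% for the 6 vessel endothelial genes on the panel, the highest sum in a cell being 12. With a looser rule of 4 counts and 4%, set after the data had been seen, 96 cells were taken as vessel endothelial. The median distance to the nearest of them was 4423, 3484 and 1014 pixels for haemoglobin-rich cells in control 1, 2 and 3 and 7609 and 1639 in HIRA KO 2 and 3, against 2294, 2642, 1554, 1986 and 1434 for other cells. Haemoglobin-rich cells were farther from such cells in 4 of 5 areas and nearer in control 3, with a mean log2 ratio of 0.57 (exact sign-flip permutation test over 5 areas, two-sided, p = 0.3125). The mean log2 ratio was 0.23 without HIRA KO 2 and 0.87 without control 3, and with distances taken within the same field of view, which left 3 areas, it was 0.0392 (p = 1 by the same exact test).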

How the data were processed

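Livers were imaged on 1 slide by CosMx. Per the labels and the file headers, the authors deposited, for each segmented cell, the raw count of every target, a table of single transcripts with position, imaging plane and compartment, and cell areas, positions and stain intensities in scanner units. The pixel size and software versions are not given in the sources used here. Cells with under 20 gene counts were left out (2215 of 52132). Members and lists were chosen with earlier results of these data known.

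Areas were compared by exact permutation tests and, within areas, by exact sign-flip permutation tests. Counts summed per area went into edgeR 4.0.16 (quasi-likelihood, TMM, filterByExpr, Benjamini-Hochberg at 0.05) in R 4.3.3, with the area as block for haemoglobin-rich against other cells, and into DESeq2 1.42.0 as an alternative. Haemoglobin entered neither those library sizes nor those tests. Negative probes and transcripts outside cells were left out of fits. SciPy 1.17.1 and scikit-learn 1.9.0 were used, and each fit was tested on simulated data. Named genes are all measured haemoglobin, erythroid, platelet and iron and haem list members, called genes with the same sign in every area, and the 2 lowest p per other list, 1 of which is not reported here. Itm2b, Neat1, Ighm (as called), Gc, Kdr and genes at the spots were named after their values were seen.

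Alternatives were other thresholds (5 or 15 counts and percent, 50 gene counts per cell), other scalings and filters, the slide row as block, fields of view as units, 10 nearest cells, very large cells left out, and leaving out each area.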

Additional observations from a re-analysis of the deposited data

Results flagged for a closer look

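Fields of view that stood apart from the rest of their area were sought in 11 groups of shares and clump numbers, by the gap of the highest or lowest value to its neighbour over the range, and chance gives about 1 in 20 such groups, a rate that cannot be applied to control 1 and control 2, whose single cell must lie in 1 field of view. In control 1, 1 field of view held the only haemoglobin-rich cell (0.103% of its cells, the others at 0). In control 2 the same was true of 1 field of view (0.128%, the others at 0). In HIRA KO 2, 1 field of view held 2 haemoglobin-rich cells (0.197%, the next 0.0877%), and the highest field of view for clumps had 4, the next 2. Each of these values stands on 1 or 2 cells or on 4 clumps. No field of view of control 3 or HIRA KO 3 stood apart.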

How the results depend on the processing

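The main results were labelled under the planned and added settings, apart from leaving out areas. Of these, 68 values stayed the same, 7 moved, 2 turned and 1 was stronger. For tests, the same means the same sign and the same side of 0.05. For counts of calls and shares at the spot it means a similar value. Tests over 5 areas or of 3 areas against 3 could not fall below 0.05. Their call could thus not change, and the 68 values are no measure of robustness. The spread in the 54 cells under 8%, which are other cells over 6 areas, was at p = 0.03125 and 0.05 after adjustment. The share of haemoglobin-rich cells differed by -0.0412 to 0.178 percentage points when areas were left out in turn, clumps by -1.33 to 33.2, and log2 Hba-a1/2 over all cells by -0.38 to 0.27, the negative ends all without HIRA KO 3. Hba-a1/2 was also at -0.0933 with library size scaling and at -0.0447 with the slide row as block. With fields of view as units the share differed by 0.0924 (permutation test, p = 0.0633), which treats fields of view of 1 area as independent. The difference in spread was -47.9 to -41.0 pixels with areas left out and -55.3 in the 54 cells under 8%. The hepatocyte share at the spot minus the ring was -6.86 percentage points (-7.10 to -6.13 with areas left out) and -4.59 with a radius of 30 pixels, and the erythroid one 3.05 (2.12 to 3.67), 4.16 with 15 pixels, 1.59 with 30 pixels and 1.65 around all clumps. Called targets against all other cells numbered 1 with library size scaling, and against the nearest cells 1 with at least 50 gene counts per cell. Between genotypes they numbered 2 with DESeq2, 0 without a filter, 0 with the slide row as block, 0 at 15 counts and 15%, and 0 to 2 with areas left out (0 without control 2, 2 without HIRA KO 2). That test could not be fitted without control 3 or HIRA KO 3. Over all cells, 2 targets passed, against 11 with DESeq2, 19 with the slide row as block and 1 to 3 with areas left out, and no haemoglobin target was among them in any of these. The cause was not tested.

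Signs also turned among single measures that did not pass a test. Cell area differed by -199.9 square pixels at 50 gene counts, and nucleus area by -102 against the nearest cells, -1.5 at 15 counts and 15%, -207 at 50 gene counts and -301 to 522 with areas left out. Mean DAPI differed by 43.7 against the nearest cells and by -386 to 46.3 with areas left out, and other gene counts by 15.2 at 5 counts and 5%, 8.17 at 15 counts and 15% and -10.9 to 14.6 with areas left out. Haemoglobin-rich neighbours differed by 1.48 percentage points at 5 counts and 5%, with the sign kept, and by -0.0571 at 15 counts and 15%, and hepatocyte neighbours by 20.8 at 15 counts and 15%, the latter by -5.93 to 5.22 with areas left out. Against the nearest cells, Itm2b was at -0.70 and Gpx1 at -0.90 without a filter, and Gpx1 at -0.21 at 15 counts and 15% and at -0.0818 to 0.316 with areas left out.

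The depth limits the results where control 1 and control 2 gave 1 cell each. Only 5 areas had haemoglobin-rich cells, so that tests over areas could not fall below 0.0625. The labels number fields of view, not mice, and share no replicate number between groups, so that no fit was paired by replicate number. Areas were paired only by their slide row.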
